A study of Mus musculus with 39 samples.

Results

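Muscle-containing tumours were compared with tumours that held little or no muscle, among 39 libraries of whole mouse melanomas. For each library the score was the mean log2(CPM + 1) of 5 genes of fast skeletal muscle fibres: Acta1, Myh4, Ckm, Tnnc2 and Atp2a1. CPM is the read count of a gene scaled to a common total for every library. The 39 libraries were ranked by the score whatever their treatment. The 13 with the highest scores are called muscle-high, the 13 with the lowest are called muscle-low, and the 13 between them were left out of the comparison, so that 26 of 39 libraries entered it. The libraries were thus selected on their measured levels of these 5 genes, and the classes are not groups of the study.

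The tumours were Braf-mutated melanomas grown from injected cells in C57BL/6 mice, and each library was made from the total RNA of a bulk tumour by 3' mRNA sequencing. From day 7 after injection the mice received vehicle (DMSO-PEG400 and water at 60:40), EPAT (30 mpk, bidaily), which blocks EP2 and EP4, both receptors for prostaglandin E2, anti-PD-1 (200 µg per dose every 2 to 3 days) or anti-PD-1 with EPAT, called the combination here, for 2 or 5 days. Each treatment and day has 5 libraries, except anti-PD-1 at day 2 with 4. The labels state neither the site of injection nor whether any tissue around the tumours was removed, and they name no animals, so the p-values below measure the spread between these libraries. Of 12 genes of the melanocyte lineage, 9 did not pass the filter on low counts. Tyrp1 was at 0 in all 26 libraries, whereas Mitf, the lineage's transcription factor, had medians of 42.1 CPM in muscle-high and 46.9 CPM in muscle-low tumours.

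Skeletal muscle fibres are long cells with many nuclei, packed with filaments of myosin and actin. Fast and slow fibres carry different myosin heavy chain genes, and embryonic and perinatal forms are expressed while fibres form or regenerate from satellite cells. Around the fibres lie connective tissue, capillaries, nerve and, at their ends, tendon. In a bulk library a higher level of a fibre gene can come from more fibres or from more RNA per fibre, which cannot be told apart, and the same holds for every other cell type named here.

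The promoter windows of 3 genes are printed because the first pair are genes of the score and the other encodes the regulator of muscle formation that was called outside the fibre lists. Each is the 250 bases upstream of the annotated start in RefSeq's table for GRCm38.p6, 5′ to 3′ on the gene's strand. Capitals mark matches on either strand to CAGCTG (an E-box form bound by MyoD-family factors), the CArG box (bound by serum response factor) or the MEF2 box. In the table's 32851 windows of this length, 13% held CAGCTG, 1.47% a CArG box and 2.92% a MEF2 box.
Acta1, chr8:123894776-123895025, minus strand: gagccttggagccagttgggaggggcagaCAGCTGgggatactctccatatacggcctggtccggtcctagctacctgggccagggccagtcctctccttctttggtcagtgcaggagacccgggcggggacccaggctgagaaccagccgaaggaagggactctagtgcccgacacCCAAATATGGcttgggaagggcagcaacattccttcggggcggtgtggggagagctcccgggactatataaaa
Myh4, chr11:67237562-67237811, plus strand: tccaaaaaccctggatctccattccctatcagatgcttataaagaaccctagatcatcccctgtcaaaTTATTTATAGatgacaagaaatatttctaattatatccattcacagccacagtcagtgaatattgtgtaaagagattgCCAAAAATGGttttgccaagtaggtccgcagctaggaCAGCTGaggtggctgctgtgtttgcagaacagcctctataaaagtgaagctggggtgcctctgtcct
Myog, chr1:134289754-134290003, plus strand: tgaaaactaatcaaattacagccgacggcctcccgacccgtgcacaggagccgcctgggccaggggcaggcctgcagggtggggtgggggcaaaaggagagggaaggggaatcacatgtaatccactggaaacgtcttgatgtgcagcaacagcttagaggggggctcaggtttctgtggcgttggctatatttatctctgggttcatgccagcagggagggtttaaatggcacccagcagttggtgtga
The Acta1 window held 1 CAGCTG and 1 CArG box, the Myh4 window 1 match to each of the 3 motifs, and the Myog window no match to these letters. A match describes the sequence and is not evidence of a bound site.

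The score ran from 10.5 in anti-PD-1 day 5 replicate 4 to 0.280 in anti-PD-1 day 2 replicate 3. Muscle-high libraries scored 6.74 to 10.5 with a median of 7.71, and muscle-low libraries 0.280 to 5.21 with a median of 1.24. The values fall off without a step at either edge of the classes: the last muscle-high library scored 6.743 and the next 6.674, and the first muscle-low library scored 5.214 and the one above it 5.275. The widest gap lay inside the muscle-low class. In 7 of its libraries the score was 0.280 to 1.24, and in the other 6 it was 3.38 to 5.21, so these 6 were not free of muscle RNA and the class is called muscle-low rather than muscle-free.

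**Figure D1:**
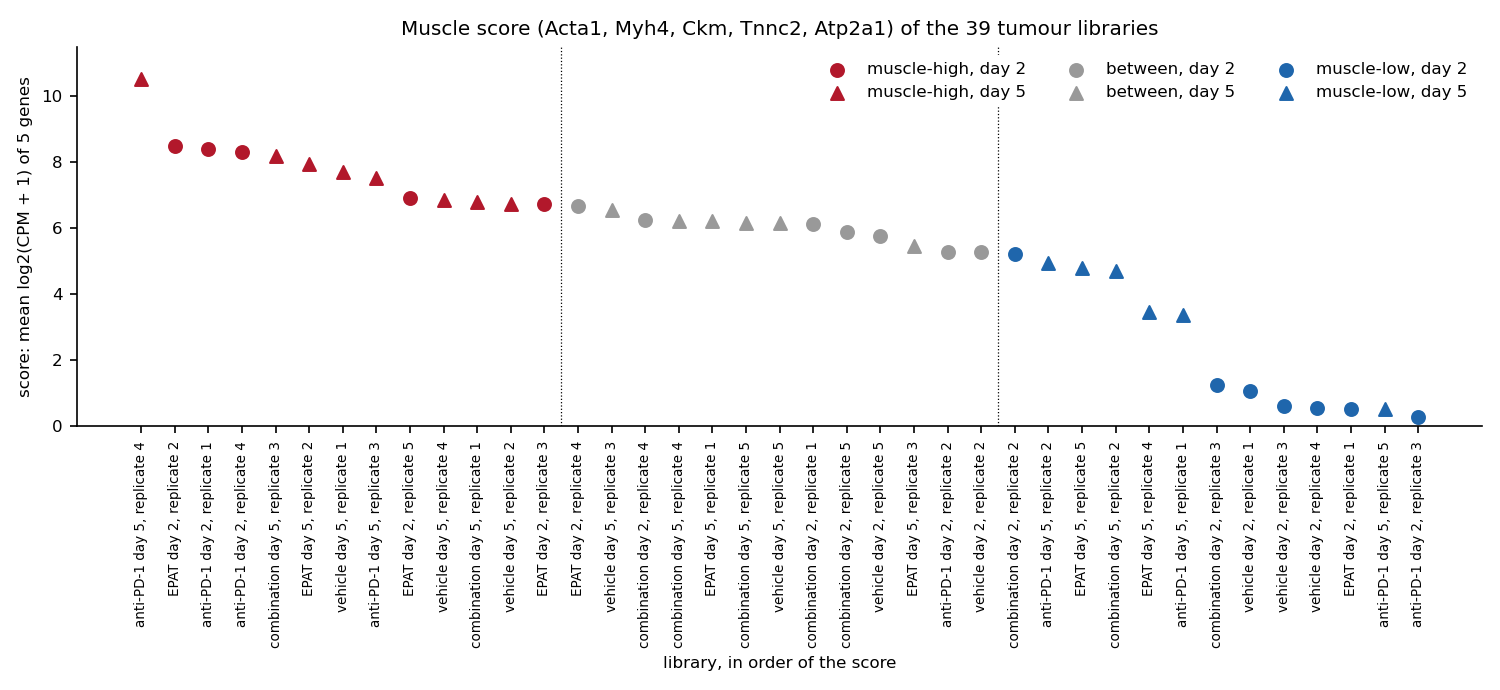
Muscle score, the mean log2(CPM + 1) of Acta1, Myh4, Ckm, Tnnc2 and Atp2a1, of each of the 39 libraries in order of the score. Circles are day 2 and triangles day 5, colours are the 3 classes, and dotted lines are the edges of the classes; the muscle-high libraries lie at 6.74 or above, and 7 muscle-low libraries lie at 1.24 or below.

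Acta1, the actin of skeletal muscle thin filaments, was at 229 CPM in the lowest muscle-high library, at a median of 686 CPM and at 4798 CPM in the highest. In muscle-low libraries its lowest, median and highest values were 0.517, 3.32 and 144 CPM. Myh4, the heavy chain of the fastest fibres, was at 106, 318 and 2166 CPM in muscle-high against 0.0861, 1.78 and 81.1 CPM in muscle-low libraries. The 2 classes do not overlap in either gene, which follows from the rule, and the 6 muscle-low libraries with remaining muscle RNA set the upper end of their class. Ckm, the muscle creatine kinase, ran from 32.8 to 647 CPM in muscle-high and from 0 to 16.2 CPM in muscle-low libraries. Tnnc2, the calcium sensor of fast thin filaments, ran from 83.8 to 1252 CPM against 0 to 32.6 CPM, and Atp2a1, the calcium pump of fast fibres, from 48.5 to 815 CPM against 0 to 19.1 CPM. All 5 genes chose the classes, so these values are a description with no test.

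Library totals were 8385741 to 15558113 counts with a median of 12193825, and the medians of the muscle-high and muscle-low classes were 12563200 and 12324400. Anti-PD-1 day 5 replicate 4 stands apart: its genes of the fibre lists held 3.95% of all counts, against 0.454% to 1.06% in the other muscle-high libraries and 0.191% to 0.374% in muscle-low ones. Its values, and the results without it, are given below where they matter. Vehicle day 2 replicates 1 and 2 and combination day 5 replicate 3 have raised markers of other tissues: Krt14, a keratin of basal epidermis, was at 58.2 CPM in the second and 60.3 CPM in the last, and Adipoq, a fat cell gene, at 256 CPM in the first. Sftpc, a surfactant gene of lung epithelium, was over 1 CPM in 8 muscle-high and 7 muscle-low libraries, with class medians of 17.1 and 13 CPM. With a lung epithelium score as a term, 57 of the 61 higher and 14 of the 18 lower genes described below kept their call.

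The classes cut across the treatments and days. Muscle-high tumours were 4 EPAT, 4 anti-PD-1, 2 combination and 3 vehicle libraries, and muscle-low tumours were 3, 4, 3 and 3. Day 2 gave 5 of the muscle-high and 7 of the muscle-low libraries. The days were uneven within treatments, most of all in vehicle: all 3 of its muscle-low libraries were from day 2 and all 3 of its muscle-high ones from day 5. In the combination the 2 muscle-high libraries were from day 5, and 2 of the 3 muscle-low ones from day 2. EPAT ran the other way, with 3 of 4 muscle-high libraries from day 2 and 2 of 3 muscle-low ones from day 5. The vehicle scores were 0.563 to 5.76 at day 2 and 6.16 to 7.71 at day 5, which do not overlap. The scores of the other treatments overlapped between the days: for EPAT they ran from 0.530 to 8.48 and from 3.47 to 7.96, for anti-PD-1 from 0.280 to 8.42 and from 0.529 to 10.5, and for the combination from 1.24 to 6.25 and from 4.71 to 8.19. No test was run on the score itself, which chose the classes.

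The rest of the fibre moved with the 5 genes. Of 184 fibre genes on 6 lists, 138 passed the filter on low counts, 130 of these had a positive log2 fold change (muscle-high over muscle-low) and 80 had one of at least 3, with a median of 3.66 or 12.6-fold. The median over all genes tested was 0.00. Thick filament genes had a median of 4.20 (14 of 14 positive), thin filament genes 4.09 (15 of 15), genes of the Z disc, titin and cytoskeleton 3.96 (26 of 28), and genes of the membrane, calcium release and neuromuscular junction 3.23 (29 of 31). Ttn, the giant spring protein of the sarcomere, ran from 349 to 8401 CPM in muscle-high and from 4.72 to 278 CPM in muscle-low libraries. Des, the intermediate filament of muscle cells, ran from 31.8 to 462 CPM against 0.937 to 18.7 CPM. Energy supply genes had the smallest median of the 6 lists, 1.47 (20 of 24). The 8 fibre-list genes with a fold change below 0 include Gys1 (−0.31), Aldoa (−0.01) and Slc25a4 (−0.00), which make glycogen, split sugar phosphate and carry adenine nucleotides, and which many other cells also express. Because these genes share their cells with the score, their values are a description: they were in the fit and in its adjustment, and no call is read from them.

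Myosin RNA of the muscle-high libraries was mostly of the fast type. The 5 score genes are of fast fibres and Myh4 is among them, so the ranking itself favoured libraries with fast fibres. The shares are therefore a description of the libraries it picked. Among 6 myosin heavy chain genes, Myh4 of the fastest fibres made up 58.8% to 84.0% of their summed CPM in the 13 muscle-high libraries, with a median of 68.9%. Myh1 and Myh2, of the other fast fibres, had medians of 20.4% and 7.35%. Myh7, the heavy chain of slow fibres, had a median of only 1.30%, and it split the class. It was at 3.21 to 57.7 CPM in 9 libraries and at 0 to 0.265 CPM in the other 4 (combination day 5 replicates 1 and 3, anti-PD-1 day 5 replicate 3 and EPAT day 2 replicate 5). These 4 libraries lacked slow myosin although their Myh4 was at 228 to 429 CPM, within the range of the other 9.

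Developmental myosins were raised in some tumours. Myh3 (embryonic) and Myh8 (perinatal) together made up 6.12% of the 6 myosins in anti-PD-1 day 5 replicate 4 (95% Wilson interval 5.90% to 6.34%), 7.17% in combination day 5 replicate 3 (6.63% to 7.75%) and 8.76% in anti-PD-1 day 5 replicate 3 (8.07% to 9.49%). The other 10 muscle-high libraries were at 0.156% to 3.52%. Between the classes, combination day 5 replicate 4 had 26.1% (24.5% to 27.8%) and the other 12 libraries at most 5.99%. In the muscle-low class EPAT day 5 replicate 5 had 17.6% of 800 myosin counts (15.1% to 20.4%), EPAT day 5 replicate 4 had 8.25% of 303 (5.65% to 11.9%) and combination day 5 replicate 2 had 7.57% of 766 (5.90% to 9.66%). Of the other muscle-low libraries 3 were at 0.774% to 2.57%, and 7 held too few myosin counts, 1 to 37, for a share to be read. The intervals cover counting error only, since the reads carry no molecular identifiers in the sources used here. The 7 tumours named here were all from day 5, and the next share, 5.99% in vehicle day 5 replicate 3, was close to the lowest of them. A difference between the days was not tested.

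**Figure D2:**
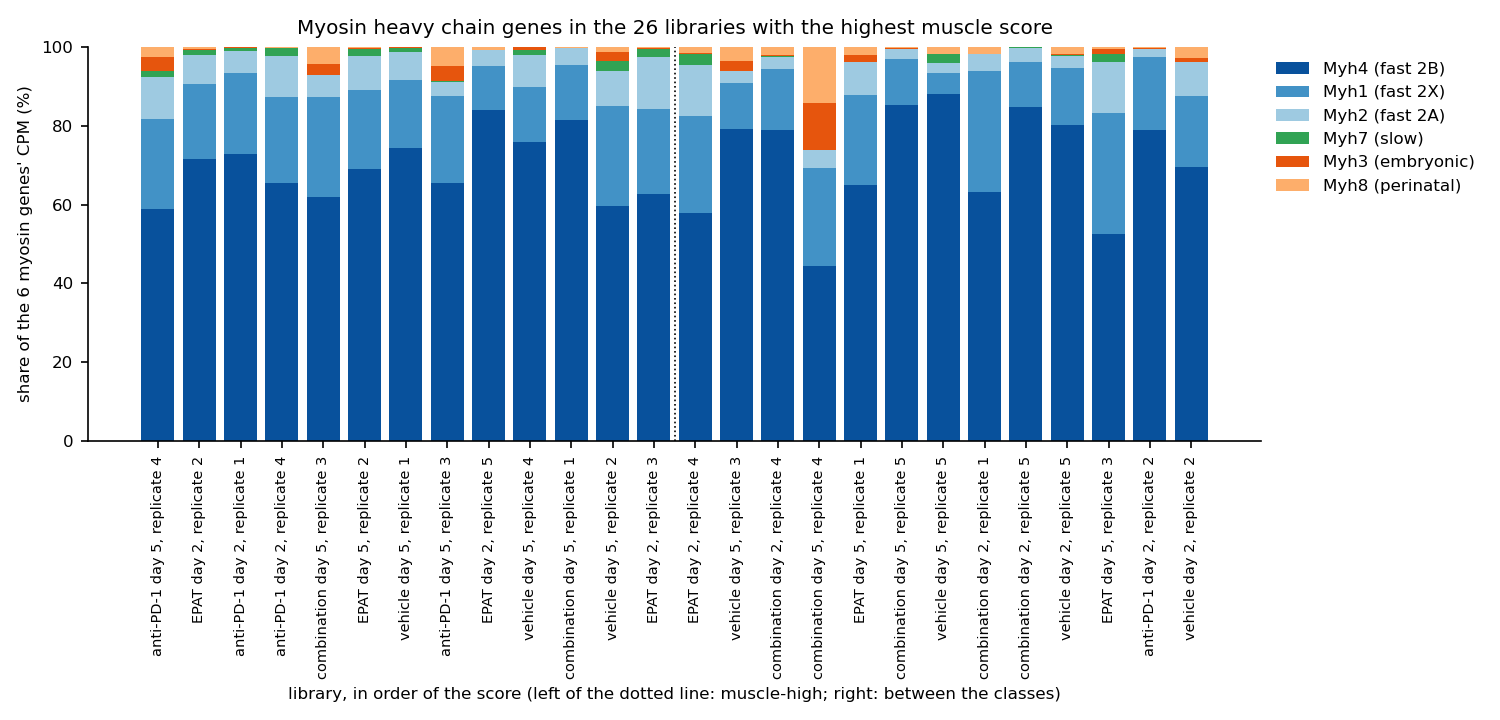
Share (%) of each of 6 myosin heavy chain genes in their summed CPM, for the 26 libraries with the highest muscle score in order of the score; left of the dotted line are the 13 muscle-high libraries. Myh4 makes up 58.8% to 84.0% on the left, slow Myh7 is missing or nearly so in 4 of these, and combination day 5 replicate 4 has the largest developmental share, 26.1%.

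The comparison then asked which genes outside the fibre lists differed between the classes. Of 13541 such genes tested, 61 rose in muscle-high tumours (0.450% of those tested) and 18 fell (0.133%) at an adjusted p under 0.05. All adjusted p-values are from edgeR's quasi-likelihood test with Benjamini-Hochberg adjustment over the 13679 genes tested, unless another adjustment is named. The 138 fibre genes are in that number, and their small p-values lower the adjusted p of the others. Adjusted over the 13541 genes alone, an alternative added after the data were seen, 42 of the 61 were called (0.310%) and 3 of the 18 (0.0222%). The changes upward were the larger ones. Of the 61 genes, 30 had a log2 fold change of at least 2, 21 one between 1 and 2 and 10 one under 1, whereas 15 of the 18 lower genes fell by less than 1. In 57 of the 61 and 15 of the 18 the median of the 13 libraries left out lay between the medians of the 2 classes. Of the 61, 26 passed the filter on low counts in each class by itself, 12 only in both classes together and 23 through the muscle-high libraries alone. Those 23 entered the test because they were high in that class, so their fold changes are descriptions. Values of the classes did not overlap in 7 higher genes, 6 of them among the 23, and overlapped in all 18 lower genes. These 7 were the only genes without overlap among all 13541 tested outside the fibre lists. At an unadjusted p under 0.05 there were 769 higher and 748 lower genes. The library anti-PD-1 day 5 replicate 4 was the highest of the 26 in 54 of the 61 genes. Without it 42 genes were called higher, all among the 61, and 11 lower, all among the 18.

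**Figure D3:**
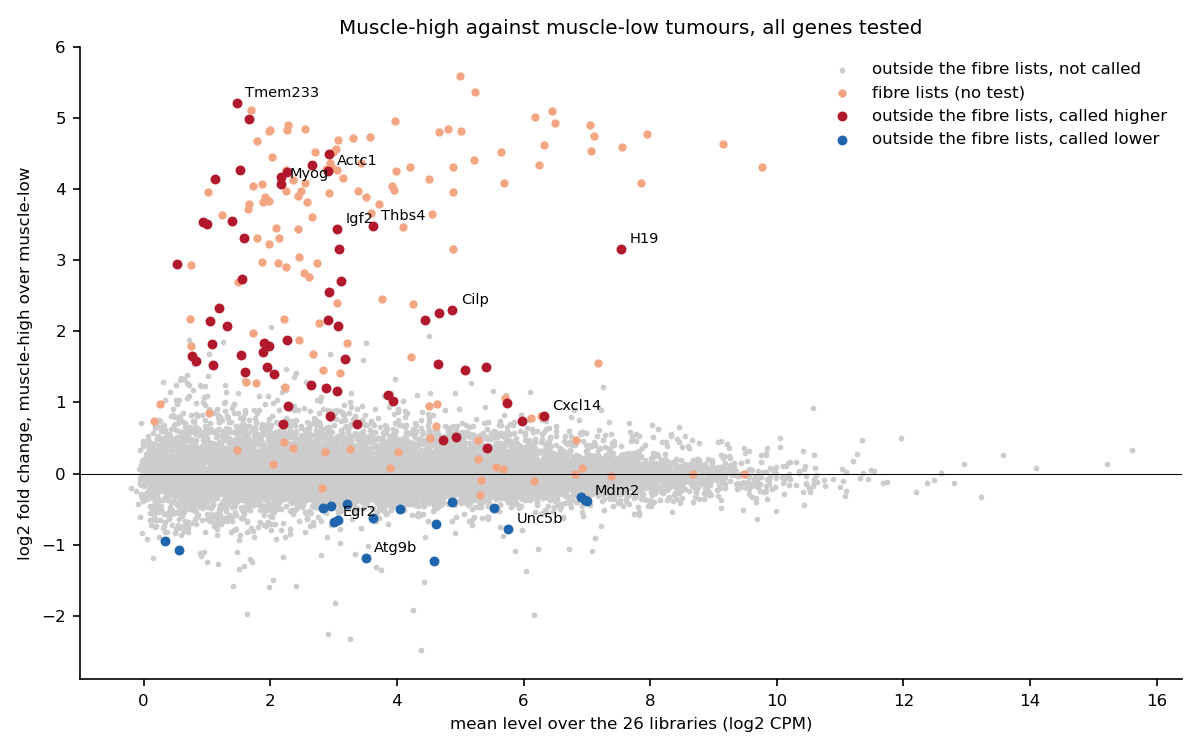
Log2 fold change of muscle-high over muscle-low tumours against the mean level over the 26 libraries (log2 CPM) for each gene tested. Orange points are genes of the fibre lists (described only), red points the 61 genes called higher and blue points the 18 called lower outside those lists; red points reach 5.22 and blue points −1.23.

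The genes with the largest fold changes include some known from muscle that the fibre lists did not hold, such as Smpx, Mypn, Myo18b and Capn3. They are not independent of the score that chose the libraries, and their values are a description. Tmem233, a small membrane protein gene, was at 1.59, 3.94 and 20.9 CPM (lowest, median, highest) in muscle-high and at 0, 0 and 0.454 CPM in muscle-low libraries, 7 of which had no count. Its log2 fold change of 5.22 (SE 0.58) was the largest of the 61, and it passed the filter through the muscle-high libraries alone. So did Ano5, a membrane protein whose loss causes a limb-girdle muscular dystrophy, with a fold change of 4.99 (SE 0.64), a muscle-low median of 0 and a muscle-high median of 4.37 CPM. Folds of this size rest on a few counts per muscle-low library. Smpx, a small muscle protein of the cell's edge, Mypn and Myo18b, which organise the sarcomere, and Capn3, a muscle protease, had fold changes of 4.50, 4.17, 4.28 and 3.55. Ank1 and Sptb, an ankyrin and a spectrin that tie membranes to the cytoskeleton in red cells and muscle, had 3.16 and 3.52, and both passed the filter through the muscle-high libraries alone. Speg and Tmod1, a sarcomeric kinase and a capping protein of thin filaments, rose by 1.82 and 1.67. Tmod1 passed the filter through the muscle-high libraries alone, and Speg only in both classes together. Without anti-PD-1 day 5 replicate 4 the adjusted p-values of Speg and Tmod1 were 0.0872 and 0.154. Neither was called with the adjustment over the 13541 genes alone (0.0700 and 0.113). Mustn1, a small nuclear protein of muscle and bone, had the second smallest p outside the fibre lists. It was at 17.2, 30.2 and 91.9 CPM in muscle-high and at 4.46, 7.41 and 14.4 CPM in muscle-low libraries, a log2 fold change of 2.16 (SE 0.24, adjusted p = 4.46e-06). No muscle-low library reached the lowest muscle-high one.

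A few genes of muscle formation were called as well, and their levels turned on few libraries. Myog, the transcription factor that drives myoblasts to fuse and differentiate, was at 0, 2.86 and 66.3 CPM in muscle-high and at 0, 0 and 2.73 CPM in muscle-low libraries (log2 fold change 4.08, SE 0.93, adjusted p = 0.0147). The highest value was again anti-PD-1 day 5 replicate 4, the next highest was 7.17 CPM, and 8 of 13 muscle-low libraries had no count. Actc1, the actin of heart and of forming skeletal muscle, was at 0.327, 1.76 and 114 CPM against 0, 0.260 and 4.67 CPM (4.26, SE 0.96, adjusted p = 0.0130). Myl4, an embryonic myosin light chain, rose by 2.55 (adjusted p = 0.0187, and 0.0577 over the 13541 genes alone). Myog and Actc1 passed the filter only in both classes together, and in neither class by itself. Myl4 passed it through the muscle-high libraries alone, so its fold change is a description. All 3 calls were lost without anti-PD-1 day 5 replicate 4, with adjusted p-values of 0.107 for Myog, 0.0933 for Actc1 and 0.0885 for Myl4. The other 11 of 12 satellite cell and myoblast genes did not pass the filter on low counts. Pax7, which marks satellite cells, had a muscle-high median of 0.168 CPM and a highest value of 2.63 CPM, and Myod1, the master regulator of the lineage, 0.716 and 10.0 CPM. Both highest values were again in that library, as were those of Mymk, the fusion protein of myoblasts (35.4 CPM), and Chrng, the fetal subunit of the acetylcholine receptor (12.2 CPM). Chrne, the adult subunit that replaces it, was at most 0.504 CPM in any muscle-high library.

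A pair of growth-related neighbours on chromosome 7 moved in the same direction. H19, an imprinted non-coding RNA (chr7:142575529-142578143, minus strand, GRCm38), was at 75.7, 175 and 1516 CPM in muscle-high and at 3.01, 7.20 and 190 CPM in muscle-low libraries, a log2 fold change of 3.16 (SE 0.69, adjusted p = 0.00875). It was the most abundant of the called genes outside the fibre lists. Igf2, the imprinted fetal growth factor beside it (chr7:142650766-142666816, minus strand), was at 1.09, 3.86 and 100 CPM against 0.0811, 0.402 and 6.63 CPM (3.44, SE 0.77, adjusted p = 0.0120). Nctc1, a non-coding transcript on the other side of H19 (chr7:142544609-142558596, minus strand), rose by 4.34 (SE 0.74, adjusted p = 0.000389). Igf2 and Nctc1 passed the filter on low counts through the muscle-high libraries alone, so their fold changes are descriptions. H19 passed it in each class by itself. In H19 the overlap comes from the muscle-low libraries that kept some muscle: EPAT day 5 replicate 5 had 190 CPM and combination day 5 replicate 2 had 102 CPM, while the 7 libraries with scores of 1.24 or below had 3.01 to 18.2 CPM. Without anti-PD-1 day 5 replicate 4 the adjusted p was 0.0277 for H19 and 0.0672 for Igf2. The 4 libraries with the highest Igf2, 20.4 to 100 CPM, were that one, anti-PD-1 day 5 replicate 3 and combination day 5 replicates 3 and 4, and these were also the 4 with the lowest Hmga2, a chromatin protein of embryonic and many tumour cells. Their Hmga2 was 249 to 958 CPM, and 1031 CPM or more in the other 35 libraries, with no overlap. Col1a1, a collagen of fibroblasts, was at 3257 to 9390 CPM in these 4 and at 990.1 to 5331 CPM in the other 35, and Apoe, abundant in macrophages, at 1823 to 6773 against 424 to 2459 CPM. Their muscle scores ranked 1, 5, 8 and 17 of 39. The part of these genes' cells in the result was not tested.

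Thbs4 and Cilp were called among the 5 tested genes of the tendon and fascia list. The other 3 had negative fold changes, the list's median was −0.09, and 6 further genes of the list did not pass the filter. Thbs4, a matrix protein of tendon and of the junction between tendon and muscle, was at 1.63, 17.1 and 97.2 CPM in muscle-high and at 0.0827, 1.69 and 7.99 CPM in muscle-low libraries (log2 fold change 3.48, SE 0.56, adjusted p = 0.00018). Thbs4 was lowest in the same 4 muscle-high libraries that lacked slow myosin: these had 1.63 to 5.97 CPM, and the other 9 had 10.7 CPM or more. This was seen after the values were known and is a description. Cilp, a matrix protein of cartilage and fascia, was at 11.7, 26 and 246 CPM against 3.44, 5.64 and 42.9 CPM (2.30, SE 0.47, adjusted p = 0.00402). Its values overlapped between the classes, and the highest muscle-low value, 42.9 CPM, was in EPAT day 5 replicate 5. Thbs4 passed the filter through the muscle-high libraries alone, and Cilp in each class by itself. Angptl1, a secreted protein related to the angiopoietins, rose by 4.25 (SE 0.77, adjusted p = 0.000949). Angptl1 passed the filter only in both classes together, and in neither class by itself. Smoc2, a matrix-associated calcium-binding protein, was at 5.4, 16.1 and 46.5 CPM against 0.579, 4.04 and 19.1 CPM and did not pass (1.83, SE 0.49, adjusted p = 0.0598). Igf1, the growth factor, had a log2 fold change of 1.15 (adjusted p = 0.147).

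**Figure D4:**
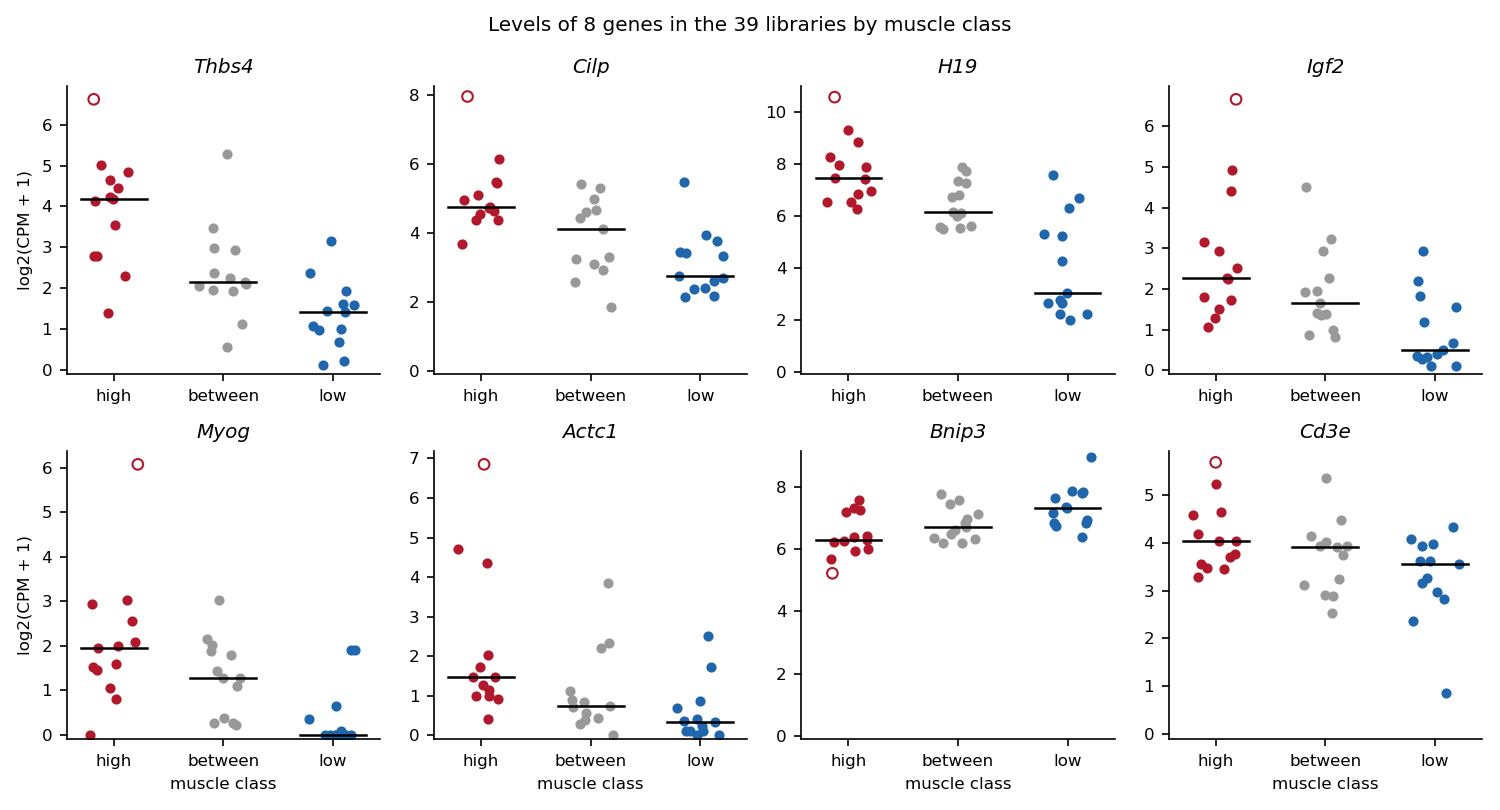
Levels of Thbs4, Cilp, H19, Igf2, Myog, Actc1, Bnip3 and Cd3e on the log2(CPM + 1) scale in the 13 muscle-high, 13 intermediate and 13 muscle-low libraries. Each point is a library, lines are class medians and the open circle is anti-PD-1 day 5 replicate 4. The first 6 genes passed the test (Igf2, Myog and Actc1 only with that library), Bnip3 and Cd3e did not. Thbs4 and Igf2 entered the test through the muscle-high libraries alone.

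Other higher genes are also known from tissues outside muscle. Hspb1 and Hspb8, small heat shock proteins that are abundant in muscle, rose by 2.71 (SE 0.39, adjusted p = 4.66e-05) and 1.54 (SE 0.36, adjusted p = 0.0201). Hspb8 had an adjusted p of 0.0552 without anti-PD-1 day 5 replicate 4 and 0.0590 over the 13541 genes alone. Hspb1 passed the filter on low counts through the muscle-high libraries alone, so its fold change is a description. Ndrg2, a stress-related gene of muscle and brain, was at 15.7, 34 and 157 CPM against 1.82, 6.89 and 26.9 CPM (2.26, SE 0.37, adjusted p = 0.000249). Fhl1, a LIM domain protein of muscle, rose by 1.5 (SE 0.28, adjusted p = 0.00129). Ckb, the creatine kinase of brain and other tissues, rose by 0.74 from a median of 44.6 to 69.0 CPM (SE 0.16, adjusted p = 0.0100). The only chemokine among the called genes was Cxcl14, made by fibroblasts and epithelia. It was at 52.4, 101 and 123 CPM in muscle-high and at 17.9, 56.3 and 102 CPM in muscle-low libraries (0.81, SE 0.21, adjusted p = 0.0421), and it kept its call in 12 of the 26 fits that left out 1 library and lost it with the adjustment over the 13541 genes alone (0.105).

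The 18 lower genes changed little, and 15 of them were called only with the fibre genes in the adjustment. Adjusted over the 13541 genes alone, the calls of Atg9b (adjusted p = 0.0445), Nrbp2 (0.0212) and the predicted gene Gm25873 (0.0319) stood, and the other 15 had adjusted p-values of 0.0531 to 0.114. Gm25873 is annotated as a small nuclear RNA and overlaps Zbtb20 on the same strand, so its counts cannot be told apart from that gene's. None of the 18 is on any of the gene lists. The largest fall was in Mir763, a microRNA locus that lies inside Hmga2 on the same strand, by 1.23 (adjusted p = 0.0309, called in 12 of 26 fits without 1 library). Its counts cannot be told apart from those of the host gene's transcript, and Hmga2 itself was not called (−0.20). Atg9b, an autophagy gene that overlaps Nos3 on the opposite strand, was at 2.07, 6.65 and 13.4 CPM in muscle-high and at 5.87, 14.7 and 30.1 CPM in muscle-low libraries (−1.19, SE 0.27, adjusted p = 0.0135). Rasl10a, a small GTPase of the Ras family, and Clca2, a regulator of chloride channels, were near 1 CPM and fell by 0.95 and 1.07. Rasl10a passed the filter on low counts through the muscle-low libraries alone, so its fold change is a description. Clca2 passed it only in both classes together, and the other 16 of the 18 in each class by itself. Unc5b, a netrin receptor, was at 22.4, 40.4 and 64.1 CPM against 32.6, 71.9 and 113 CPM (−0.78, SE 0.18, adjusted p = 0.0201). Tnfrsf23, a decoy receptor for the death ligand TRAIL, fell by 0.71 (adjusted p = 0.0271) and Egr2, a transcription factor of Schwann and immune cells, by 0.68 (adjusted p = 0.0487). Of the 26 fits without 1 library, 12 kept the call of Clca2, 20 that of Tnfrsf23 and 5 that of Egr2.

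Several of these 15 were abundant and shifted by a small amount. Mdm2, the ubiquitin ligase that restrains p53, was at 83.4, 112 and 136 CPM in muscle-high and at 99.4, 147 and 184 CPM in muscle-low libraries (−0.39, SE 0.09, adjusted p = 0.0213). Sertad2, a transcriptional coregulator, fell by 0.37 (adjusted p = 0.0198) and Mafg, a small Maf transcription factor, by 0.33 (adjusted p = 0.0435). The Mafg gene overlaps Sirt7 on the same strand. Rpl10a, a protein of the large ribosomal subunit, was at 26, 38 and 55.5 CPM against 36, 55 and 68.8 CPM (−0.48, SE 0.12, adjusted p = 0.0213), with an adjusted p of 0.0515 without anti-PD-1 day 5 replicate 4. Atat1, the tubulin acetyltransferase, and Six5, a homeobox factor, fell by 0.50 and 0.43. Of the 26 fits without 1 library, 11 kept the call of Mafg and 7 that of Six5. Nrbp2, a pseudokinase and 1 of the 3 calls that stood under both adjustments, fell by 0.63 (adjusted p = 0.00548). With the treatment and day group as a term in the fit, 60 genes were called higher, 44 of them among the 61, but only 3 lower, none among the 18. All 18 kept a negative sign there.

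Genes outside the fibre lists were also ranked by how closely they followed the score over the 39 libraries. The 10 highest rank correlations were 0.88 to 0.94 and belonged to Myo18b, Mypn, Mustn1, Ank1, Ano5, Tmem233, Smpx, Nctc1, 1110002E22Rik and Neurl1a (a ubiquitin ligase), all of which were called. The 10 lowest were −0.64 to −0.59. They included Dlg3, a scaffold protein of synapses and epithelia, with the lowest value (log2 fold change −0.43, adjusted p = 0.104), and 4 called genes, Rpl10a, Gm25873, Nrbp2 and Sertad2. These correlations are across libraries that the score itself orders, so they are descriptions.

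Of 38 gene lists for other cell types and processes, 35 had no called member, the exceptions being the lists that hold Myog, Thbs4 with Cilp, and Igf2. Over all 13541 genes outside the fibre lists only 0.450% were called higher and 0.133% lower. A short list with no called member is therefore no result about that list. At an unadjusted p under 0.05 were 1517 of the 13541 genes. The lists that leaned most to either side are described by their values, beside a median of 0.00 over all genes tested. All 17 genes of the hypoxia and glycolysis list were tested and all 17 had a negative log2 fold change, with a median of −0.62 and 11 at an unadjusted p under 0.05, but none was called. Bnip3, a mitophagy receptor induced by low oxygen, was at 36.3, 78.0 and 190 CPM in muscle-high and at 82.2, 159 and 499 CPM in muscle-low libraries (−0.90, SE 0.27, adjusted p = 0.110). Slc2a1, the glucose transporter, had a log2 fold change of −0.80 (adjusted p = 0.111), Pdk1, which holds pyruvate out of the citrate cycle, −0.63 (adjusted p = 0.105) and P4ha1, a collagen prolyl hydroxylase, −0.55 (adjusted p = 0.113). The highest value of all 17 genes was in combination day 2 replicate 2, and without that muscle-low library the list's median was −0.38. It was −0.84 among day 2 and −0.35 among day 5 libraries, and −0.46 by DESeq2, which called 4 of the 17 genes. Over all genes outside the fibre lists DESeq2 called 124 higher and 70 lower.

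T cell genes leaned the other way. All 15 tested had a positive log2 fold change, with a median of 0.60, and 6 were at an unadjusted p under 0.05, but none was called. Cd3e, a chain of the T cell receptor complex, was at 8.77, 15.4 and 50.1 CPM in muscle-high and at 0.817, 10.8 and 19.1 CPM in muscle-low libraries (0.94, SE 0.32, adjusted p = 0.189). Cd8b1, the beta chain of the CD8 coreceptor, had 1.14 (adjusted p = 0.227), and Cd8a, its alpha chain, 0.98 (adjusted p = 0.311). The upper end again came from anti-PD-1 day 5 replicate 4 and combination day 5 replicate 3, and the median of the list was 0.44 without the former. Mast cell genes had a median of 0.82, with 8 of 8 tested positive and 5 at an unadjusted p under 0.05. Mcpt4, a protease of connective tissue mast cells, was at 5.71, 19.5 and 50.3 CPM against 4.05, 9.56 and 21.1 CPM (1.01, SE 0.33, adjusted p = 0.171). The classes overlapped in every gene of both lists that is named here.

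None of the treatments' own targets passed the test. Pdcd1, which encodes PD-1, was at 4.48, 13.3 and 39.5 CPM in muscle-high and at 1.09, 8.11 and 14.8 CPM in muscle-low libraries (0.82, SE 0.32, adjusted p = 0.286). Cd274, its ligand PD-L1, had a log2 fold change of 0.04 (SE 0.35, adjusted p = 0.974). Ptger2 and Ptger4, the EP2 and EP4 receptors, had 0.22 (adjusted p = 0.822) and 0.41 (adjusted p = 0.518), and Ptgs2, the cyclooxygenase that feeds prostaglandin E2 synthesis, −0.31 (adjusted p = 0.688). The 10 tested genes of the prostaglandin E2 pathway had a median of 0.07. Gzmb, a granule protease of killer cells, and Ifng, the cytokine of type 1 immunity, had 0.04 (adjusted p = 0.977) and −0.19 (adjusted p = 0.902).

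Fat and nerve genes had negative medians and large differences between libraries. All 7 adipocyte genes tested had a negative log2 fold change, with a median of −1.06, yet Adipoq, the hormone of fat cells, had the higher median in muscle-high tumours (1.30, 7.32 and 23.9 CPM against 0.332, 1.95 and 256 CPM). In 4 muscle-low libraries, all from day 2, Adipoq was above the highest muscle-high value: vehicle day 2 replicate 1 had 256 CPM, anti-PD-1 day 2 replicate 3 had 66.2, EPAT day 2 replicate 1 had 38.9 and vehicle day 2 replicate 3 had 31.1. The other 9 were at 0.332 to 6.53 CPM. Without vehicle day 2 replicate 1 the list's median was −0.52, and within day 5 it was 2.88, with 6 of 7 genes positive. The 11 tested genes of peripheral nerve and Schwann cells had a median of −0.46 with 2 positive, and without combination day 2 replicate 2 the median was 0.06.

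**Figure D5:**
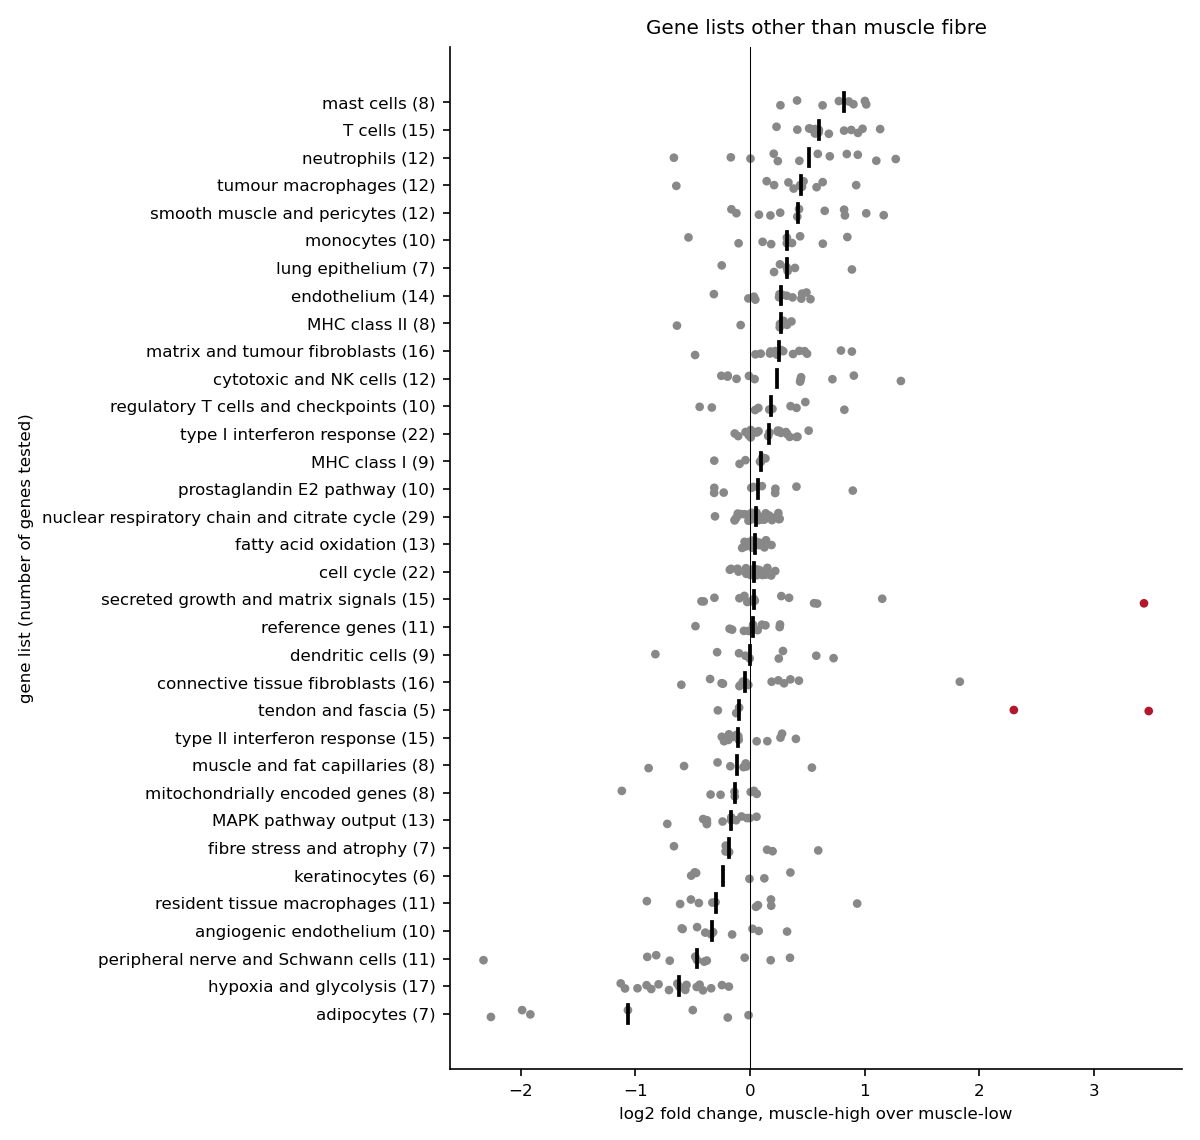
Log2 fold change of each tested gene (points) and the median (bars) of the gene lists other than muscle fibre that had at least 5 genes tested, ordered by the median, with the number of genes tested in brackets. Red points are the called genes Thbs4, Cilp and Igf2; the medians run from −1.06 for adipocytes to 0.82 for mast cells.

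Vessels, fibroblasts and myeloid cells differed less. Endothelial genes had a median of 0.27 (12 of 14 positive) and genes of sprouting, angiogenic endothelium −0.33 (3 of 10 positive). Apln, a peptide made by sprouting tip cells, was at 8.32, 13.5 and 24 CPM against 13.8, 19.6 and 58.2 CPM (−0.59, SE 0.19, adjusted p = 0.146), and Pgf, placental growth factor, had −0.60 (adjusted p = 0.145). Smooth muscle and pericyte genes had a median of 0.42 (10 of 12 positive), 0.17 without anti-PD-1 day 5 replicate 4, in which Acta2, the actin of smooth muscle, was at 335 CPM against at most 89.0 CPM in the other muscle-high libraries. Matrix fibroblast genes had 0.25 (15 of 16), tumour macrophage genes 0.44 (11 of 12) and neutrophil genes 0.51 (10 of 12), the last 0.17 without anti-PD-1 day 5 replicate 3, whose S100a8, a neutrophil calcium-binding protein, was at 342 CPM. Adgre1, the macrophage marker F4/80, was at 63.2, 118 and 273 CPM in muscle-high and at 65.2, 92.5 and 166 CPM in muscle-low libraries (0.58, SE 0.21, adjusted p = 0.221). Cell cycle genes had a median of 0.04 (14 of 22 positive), fatty acid oxidation genes 0.04 (9 of 13), nuclear genes of the respiratory chain and citrate cycle 0.06 (19 of 29), and MAPK pathway output genes −0.16 (1 of 13).

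The days gave different counts but no tested difference. Among day 2 libraries alone 37 genes outside the fibre lists were called higher, 29 of them among the 61, and 11 lower. Among day 5 libraries alone none was called in either direction by the same edgeR test, with 688 higher and 363 lower at an unadjusted p under 0.05, and all 61 and all 18 kept their sign. A test of the difference in the class effect between the days, added after the data were seen, called 0 of 13541 genes (edgeR, 1004 at an unadjusted p under 0.05, lowest adjusted p = 0.565). The muscle-low class had 1 library with a score of 1.24 or below at day 5 and 6 at day 2.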

How the data were processed

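The deposited raw counts per gene were the main input; per the submitters' processing notes, reads were demultiplexed with bcl2fastq, aligned with STAR and counted with featureCounts, with limma, mm10 and GRCm38 also named (the sources used here give no versions, annotation or strand setting). The deposited log2 CPM values, which the authors scaled per library by other than the plain total, were used in 1 alternative. Libraries were made with a QuantSeq 3' FWD kit from 500 ng of RNA, per the labels' protocols, which name day 4 for isolation although the time points are days 2 and 5.

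Levels are plain CPM of the library total. The 26 libraries of both classes were fitted with edgeR 4.0.16 in R 4.3.3 (TMM, filterByExpr at its counts of 10 per library and 15 in all, robust quasi-likelihood F test on the class, 24 residual degrees of freedom, Benjamini-Hochberg over 13679 genes, adjusted p under 0.05). Of 39179 gene identifiers 37693 had a symbol, from GENCODE gene names. The test was checked on simulated counts. No pair of libraries of 1 group agreed within sampling noise (76 pairs, lowest chi-square per gene 10.01), so all were kept as separate samples.

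Members, lists and tests were chosen with earlier results of these data known. Fibre genes were in the fit and its adjustment but are described only; an adjustment without them was an added alternative. Named genes are the 5 score genes, up to 4 per list by p, up to 15 called higher and 15 lower by fold change (mean log2 CPM of at least 1, at least 11 of 13 libraries beyond the other class's median), the 10 most and 10 least like the score, and 8 treatment and immune genes. Myl4, Hspb1, Hspb8, Ndrg2, Fhl1, Speg, Tmod1, Sptb, Cxcl14, Ckb, Mir763, Clca2, Rasl10a, Hmga2 and the single fibre and formation genes given as levels were named after their values were seen. Alternatives were 13 planned ones, 3 added later and leaving out each of the 26 libraries. One gene is not reported here.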

Additional observations from a re-analysis of the deposited data

Results flagged for a closer look

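Within 2 of the treatment and day groups 1 library had a muscle score far below the other 4. In EPAT at day 2 the lowest of 5 scores was 0.530, and its gap to the next library took up 0.772 of the group's range. In the combination at day 2 the lowest of 5 was 1.24, with a gap of 0.793 of the range. Both libraries are in the muscle-low class, among the 7 with almost no muscle RNA. Chance alone marks about 1 in 20 groups by this criterion, and the cause was not tested.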

How the results depend on the processing

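The main counts were 61 genes higher and 18 lower outside the fibre lists. They were 124 and 70 with DESeq2 1.42.0, 148 and 30 with no filter on low counts, 491 and 189 with the score as a continuous term over 39 libraries, 96 and 58 with 8 other fibre genes in the score, 37 and 11 in day 2 libraries alone and 0 and 0 in day 5 libraries alone. The deposited log2 CPM with limma-trend 3.58.1 gave 130 higher genes, and the treatment and day group as a term 3 lower ones. Chosen after seeing the data, the 7 muscle-low libraries below the widest gap gave 93 higher genes, and keratinocyte, adipocyte and T cell scores as terms gave 27 and 4. Adjusting over the 13541 genes outside the fibre lists alone, also chosen after seeing the data, gave 42 higher genes and 3 lower, all among the main ones, because the fibre genes' small p-values no longer entered the adjustment. Leaving out each library in turn gave 42 to 73 higher and 11 to 34 lower genes, the lowest of both without anti-PD-1 day 5 replicate 4 and 34 without EPAT day 5 replicate 2 or EPAT day 2 replicate 1. Scaling without the fibre genes, library totals only, the top 10 against the bottom 10 and a lung score kept both counts within 1.5 times. So did leaving out vehicle day 2 replicate 1 and combination day 5 replicate 3, which have markers of other tissues. Vehicle day 2 replicate 2, which has them too, was between the classes and not in the fit. The cause of the differences was not tested.

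Every called gene named in the report kept its sign in each of the 39 to 42 settings in which it was tested, but Egr2, Six5, Tmod1, Mafg, Clca2, Cxcl14, Mir763, Tnfrsf23 and Speg kept their call in only 5, 7, 8, 11, 12, 12, 12, 20 and 23 of the 26 fits without 1 library. Signs reversed only among genes that were not called. In day 2 libraries alone Acta2 was −0.11, Apoe −0.39, C1qa −0.030, Ptger4 −0.28, Lum −0.0057, Col1a1 −0.14 and Ptgs2 0.30. In day 5 libraries alone Cidec was 2.95, Cfd 3.09, Adipoq 2.88, Lyve1 0.30 and Gzmb −0.46. With limma-trend Cidec was 0.35, Cfd 0.34, Adipoq 0.54 and Ifng 0.42. With the 3 scores as terms Cidec was 1.12, Cfd 0.95, Adipoq 1.08, S100a8 −0.0027, Ptger2 −0.0091, Cd274 −0.25 and Gzmb −0.38. Ifng was 0.090 with the continuous score and 0.095 against the 7 lowest libraries, where Ptgs2 was 0.20. Cd274 was −0.055 for the top 10 against the bottom 10. Without vehicle day 2 replicate 1 and combination day 5 replicate 3, Cd274 was −0.13 and Gzmb −0.11. Leaving out 1 library gave −0.064 to 0.38 for Cd274, −0.083 to 0.29 for Gzmb and −0.49 to 0.25 for Ifng.

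No paired analysis was possible because the classes cut across the treatment groups and the replicate numbers follow accession order. Library totals of 8385741 counts or more leave genes near 1 CPM on about 10 counts per library, so folds of genes with a muscle-low median at or near 0 are imprecise.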
